A study of Mus musculus with 10 samples.

Results

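Polyamines are small positively charged molecules that bind nucleic acids and are needed for growth and translation. Ornithine decarboxylase makes putrescine from ornithine, and 2 synthases add aminopropyl groups from decarboxylated S-adenosylmethionine to give spermidine and then spermine. A back-conversion route acetylates spermidine and spermine and oxidizes the products. Much of the control acts on the proteins and on translation, through antizymes that bind ornithine decarboxylase and an inhibitor that binds the antizymes, so an mRNA level is only part of the state of the pathway. The genes described here were chosen by name: *Odc1*, *Azin1*, *Oaz1*, *Oaz2*, *Amd1*, *Srm*, *Sms*, *Sat1*, *Smox* and *Paox*. All 10 of 10 were among the 12148 genes of the count table, and all 10 passed the filter of at least 20 counts over the 10 libraries that left 12147 genes to test.

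RNA from whole liver of wild-type germ-free C57BL/6 mice was sequenced, with 1 library per mouse. Germ-free (GF) mice have no gut microbiota, so they make no bacterial vesicles of their own. The GF+MEV group (n = 5) received repeated oral doses, over several weeks, of microbiota-derived extracellular vesicles (MEV) purified from the gut contents of control mice with a normal microbiota, and the GF+PBS group (n = 5) received the PBS carrier alone. All livers came from a single experiment, and the age and sex of the germ-free animals are not given in the sources used here. Libraries held 15746119 to 20523649 counts on genes. Values are in CPM, a gene's count relative to the size of its library after TMM scaling, differences are log2 fold changes of GF+MEV against GF+PBS from edgeR's quasi-likelihood test, and a gene was called where its p-value, adjusted over all 12147 tested genes, was under 0.05.

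Facts of the whole table bear on each result. The fit called 928 of 12147 genes, a background of 7.64%, with 500 higher (4.12%) and 428 lower (3.52%) in GF+MEV, so 53.9% of called genes were higher. Scaling by the upper quartile moved that share to 41.2%, and scaling by library totals alone to 32.5%. Hepatocyte markers summed to 106800 to 124500 CPM in GF+MEV and 108000 to 123400 CPM in GF+PBS livers. Of 55 markers of hepatocytes, macrophages, endothelium, stellate cells, bile ducts, lymphocytes and muscle, 43 were tested, 5 were called higher and 3 lower. The summed CPM of the groups overlapped in each of the 7 lists. The markers that were not tested were absent from the count table. Among the 8 hepatocyte markers 3 were called higher and none lower. Their log2 fold changes were above 0 in 6 and below 0 in 2 (median 0.224). The muscle markers spread widely, from 248 to 342 CPM in sum in GF+MEV and from 209 to 765 CPM in sum in GF+PBS. All 5 tested lymphocyte markers had log2 fold changes below 0 (median -0.656) and 2 were called lower, with sums of 8.49 to 16.2 CPM in GF+MEV and 14.1 to 17.2 CPM in GF+PBS. Of 3 tested biliary markers 1 was called higher, with sums of 28.1 to 79.3 CPM and 23.2 to 29.7 CPM. The part of these cell types in the values of the polyamine genes was not tested. In whole liver, fewer cells of a type and less RNA per cell cannot be told apart. GF+PBS replicates 1 and 3 lay closer together than other pairs, with a root mean square difference of 0.623 on the log2 scale over the most variable genes, as did replicates 4 and 5 (0.467), while the other pairs of GF+PBS livers lay 0.828 to 1.09 apart.

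Of the 10 polyamine genes, 1 was called higher in GF+MEV livers (*Amd1*) and 1 lower (*Paox*), and 8 were not called. This share stands beside a background of 7.64% of all genes. The log2 fold changes were above 0 in 5 genes and below 0 in 5. Their median was -0.004, which was also the median over all tested genes, and the median size regardless of sign was 0.075 against 0.115 for all genes. The livers of the 2 groups overlapped in 8 members and were apart in 2, *Smox* and *Paox*, beside 7.39% of all tested genes without overlap. An unadjusted edgeR p under 0.05 was found in 3 members (*Amd1*, *Smox* and *Paox*), against 21.2% of all tested genes.

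**Figure D1:**
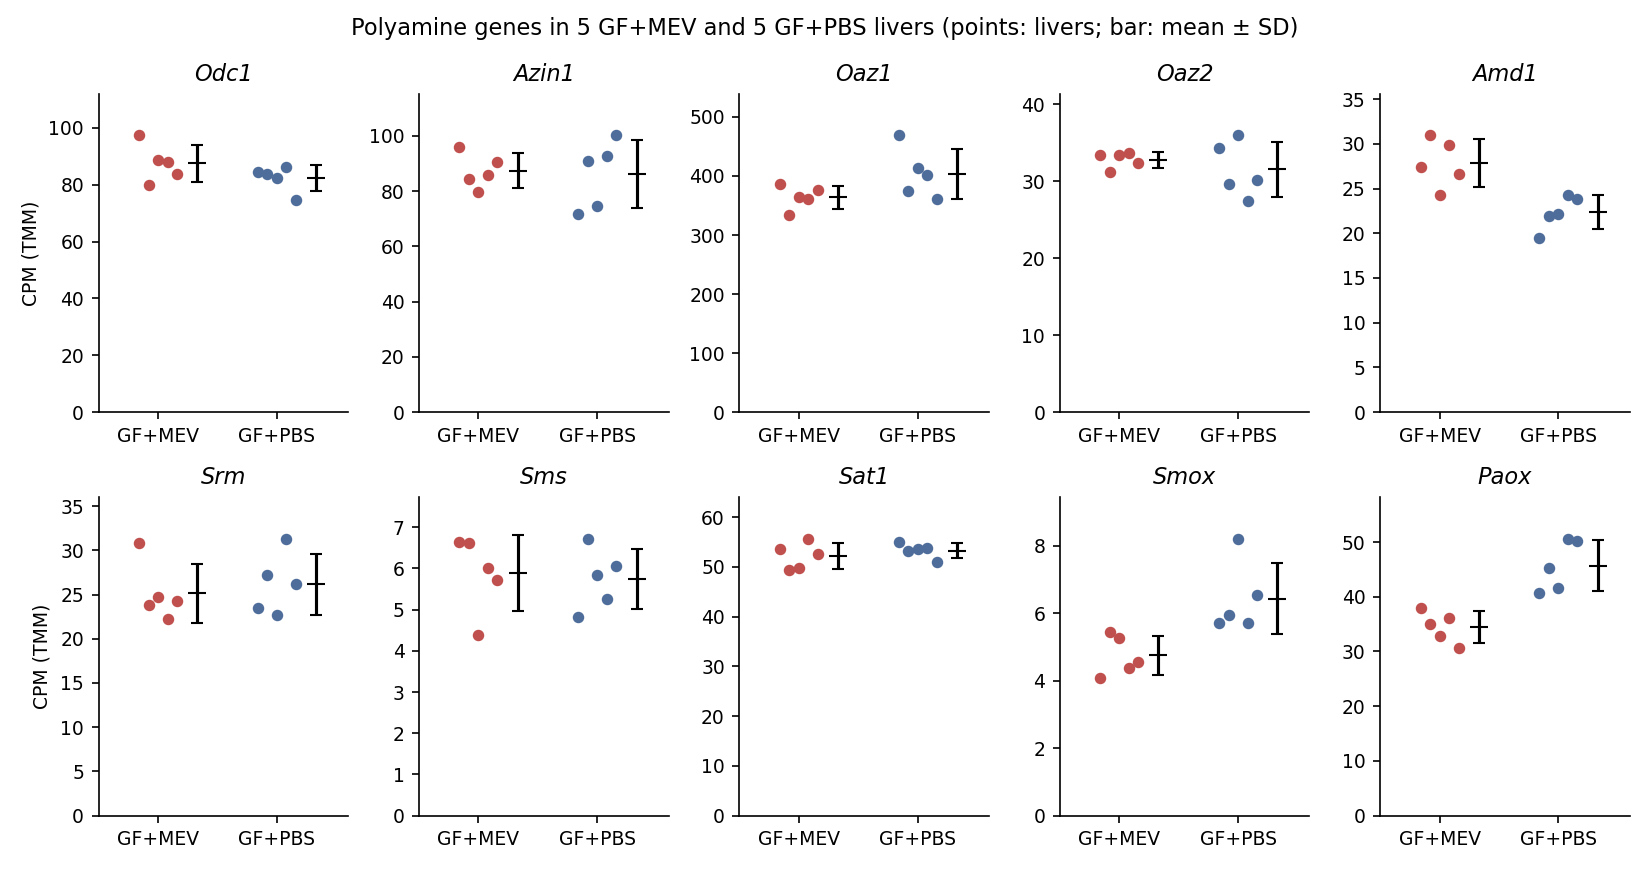
CPM of each polyamine gene (vertical axis, from 0) in 5 GF+MEV and 5 GF+PBS livers, 1 point per liver, with the mean and SD as a bar beside the points. *Paox* and *Smox* are lower in all 5 GF+MEV livers than in any GF+PBS liver, *Amd1* is higher with overlap at 24.2 and 24.3 CPM, and the other 7 overlap.

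Compared per kilobase of exon, *Oaz1* lay far above the other genes and *Smox* and *Sms* far below, and several genes between them overlapped. *Oaz1* stood highest at 142 ± 7.76 CPM per kb in GF+MEV and 158 ± 16.5 CPM per kb in GF+PBS (SD, n = 5 each), and *Odc1* came next at 25.7 ± 1.92 and 24.2 ± 1.34 CPM per kb. Neither gene's livers overlapped in level with those of the gene below it. *Sat1* (18.8 and 19.2 CPM per kb), *Srm* (15.7 and 16.4) and *Azin1* (13.97 and 13.8) followed in GF+MEV and GF+PBS, and neighbours among these 3 overlapped in both groups. *Oaz2* averaged 10.97 CPM per kb in GF+MEV, apart from *Azin1*, and 10.6 CPM per kb in GF+PBS, where the livers of *Oaz2* and *Azin1* overlapped. The order of *Amd1* and *Paox* differed between the groups. In GF+PBS *Paox* stood above *Amd1* without overlap, at 9.31 ± 0.949 against 6.30 ± 0.535 CPM per kb (SD, n = 5), and in GF+MEV *Amd1* was at 7.86 ± 0.756 and *Paox* at 7.03 ± 0.583 CPM per kb, with overlapping livers. *Smox* (1.22 and 1.65 CPM per kb) and *Sms* (0.978 and 0.955) were lowest, overlapping in GF+MEV and apart in GF+PBS. Exon length was the union of all annotated exons of a gene, so a gene with rarely used exons reads low on this scale. Sequence shared with other genes also limits the order. It makes up 87.6% of the 50-base stretches of the longest coding *Amd1* transcript and 28.9% of those of *Paox*. For *Oaz1*, *Odc1* and *Sms* the shares are 52.2%, 42.2% and 28.7%. How reads that fit several genes were counted is not given, so the levels of these genes are uncertain. The rank of *Amd1* against *Paox* is uncertain in both groups.

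**Figure D2:**
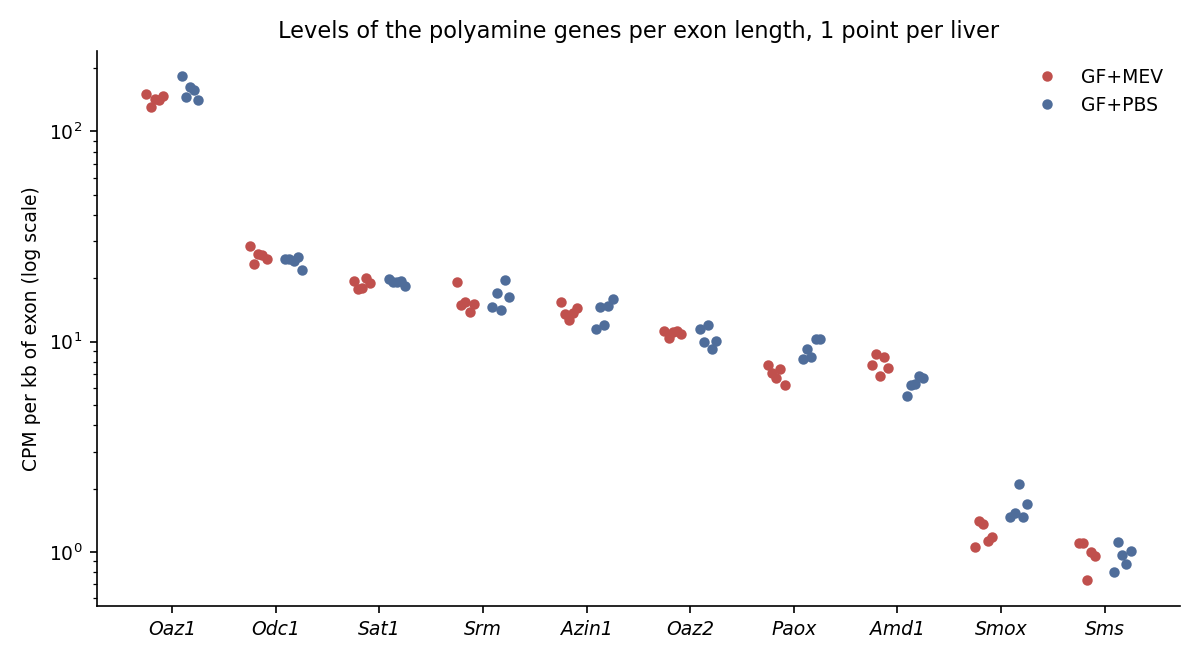
Level of each polyamine gene in CPM per kilobase of exon (log scale), 1 point per liver, with genes ordered by their GF+PBS mean. *Oaz1* lies far above the rest and *Smox* and *Sms* far below. The means of *Paox* and *Amd1* change places between the groups, with overlapping livers in GF+MEV.

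*Odc1* (ENSMUSG00000011179, GRCm38 chromosome 12 from 17544794 to 17551505, plus strand) encodes ornithine decarboxylase, the first enzyme of the route. Its level was 97.5, 80.0, 88.9, 87.9 and 83.9 CPM in GF+MEV replicates 1 to 5 and 84.5, 83.8, 82.5, 86.2 and 74.5 CPM in GF+PBS replicates 1 to 5. GF+MEV replicate 1 was the highest of the 10 and GF+PBS replicate 5 the lowest, with the other livers intermixed. Of the 50-base stretches of its longest coding transcript, 42.2% also occur in transcripts of 16 other annotated genes. On the log2 scale the groups differed by 0.09 (standard error, SE, 0.06; 95% interval -0.05 to 0.23, adjusted p = 0.458 in edgeR).

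*Azin1* (ENSMUSG00000037458, chromosome 15 from 38487427 to 38519266, minus strand) encodes antizyme inhibitor 1, a relative of ornithine decarboxylase that has no such activity and takes up antizyme. It measured 96.1, 84.5, 79.6, 86.0 and 90.7 CPM in GF+MEV and 71.7, 90.9, 74.6, 92.8 and 100.3 CPM in GF+PBS. The GF+MEV values lay inside the range of GF+PBS, where replicates 1 and 3 were low and the other 3 high. GF+MEV minus GF+PBS came to 0.02 on the log2 scale (SE 0.11, interval -0.23 to 0.29, adjusted p = 0.929 in edgeR), and it was -0.02 with upper-quartile scaling and -0.05 with library totals alone. Exons of the antisense gene Gm49077 cover 358 bases of it on the other strand, and whether the counting used strand is not given in the sources used here.

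The antizyme genes *Oaz1* and *Oaz2* are translated through a programmed frameshift: the ribosome meets a stop codon early and must skip 1 base to go on, more often when polyamines are plentiful. The stretch is shown because it is where this control acts. It was read from GENCODE M21 transcripts on GRCm38, 5′ to 3′ on the plus strand, with capitals for the last codon of the upstream frame (TCC), the stop codon (TGA) and the base after it.
Oaz1 (chr10:80828283-80828306): cggtggtgcTCCTGATgtccctca
Oaz2 (chr9:65686260-65686283): ctgtggtgcTCCTGATgcccctca
In *Oaz1* 68 codons precede the stop and 159 follow the shift, and in *Oaz2* 32 precede and 157 follow. Counts per gene do not measure frameshifting, so the values here are of mRNA alone.

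*Oaz1* (ENSMUSG00000035242, chromosome 10 from 80826656 to 80829290, plus strand) was at 385.8, 333.1, 364.1, 360.5 and 375.6 CPM in GF+MEV and 469.3, 374.2, 413.7, 400.9 and 360.7 CPM in GF+PBS. Of the GF+PBS livers, 3 lay above all GF+MEV livers, and GF+PBS replicates 2 and 5 lay among them. The log2 fold change of -0.15 did not pass the test (SE 0.08, interval -0.33 to 0.04, adjusted p = 0.25 in edgeR). Of the 50-base stretches of its longest coding transcript, 52.2% also occur in the pseudogene *Oaz1-ps*, whose own count averaged 4.48 CPM in GF+PBS, so reads may be divided between them.

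*Oaz2* (ENSMUSG00000040652, chromosome 9 from 65668001 to 65690300, plus strand) was at 33.4, 31.2, 33.4, 33.7 and 32.3 CPM in GF+MEV and 34.4, 29.6, 36.0, 27.5 and 30.2 CPM in GF+PBS. The GF+MEV livers again sat within the GF+PBS range, and the coefficient of variation was 3.17% in GF+MEV and 11.2% in GF+PBS. The log2 fold change was 0.06 (SE 0.07, interval -0.13 to 0.26, adjusted p = 0.727 in edgeR), or -0.02 with library totals alone.

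Ratios within a liver set the enzyme against its regulators, as a description. *Odc1* to *Oaz1* spanned 0.223 to 0.253 in GF+MEV (median 0.244) and 0.18 to 0.224 in GF+PBS (median 0.207), where GF+PBS replicate 2 alone reached the GF+MEV range. *Odc1* to *Azin1* spanned 0.926 to 1.12 and 0.743 to 1.18, with GF+MEV inside GF+PBS.

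*Amd1* (ENSMUSG00000075232, chromosome 10 from 40287458 to 40302186, minus strand) encodes S-adenosylmethionine decarboxylase, which makes the aminopropyl donor for both synthases. A short open reading frame in the leader of its mRNA stalls ribosomes when polyamines are high. It is shown here, in capitals from its start codon to its stop codon, because the paralog *Amd2* carries it base for base (GENCODE M21 transcripts on GRCm38, minus strand of both genes).
Amd1 (chr10:40302152-40302179): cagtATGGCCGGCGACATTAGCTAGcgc
Amd2 (chr10:35711857-35711884): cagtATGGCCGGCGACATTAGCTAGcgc
The frame has 6 codons before its stop and ends 296 bases before the main start codon in *Amd1*, and 300 bases before it in *Amd2*. Over the longest coding *Amd1* transcript, leader included, 87.6% of the 50-base stretches occur in 1 or more of 8 other annotated genes. *Amd2* and 5 named *Amd* pseudogenes are among them. None of these 8 was in the count table, and the count given to *Amd1* depends on how reads that fit several of them were treated.

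*Amd1* was called higher in GF+MEV livers. It measured 27.4, 31.0, 24.2, 29.9 and 26.7 CPM in GF+MEV replicates 1 to 5 and 19.4, 22.0, 22.2, 24.3 and 23.8 CPM in GF+PBS replicates 1 to 5. Of the GF+MEV livers, 4 stood above all 5 GF+PBS livers, and GF+MEV replicate 3 stood just under GF+PBS replicate 4. The group means were 27.9 ± 2.68 and 22.3 ± 1.89 CPM (SD, n = 5 each), a 1.25-fold difference (log2 fold change 0.32, SE 0.08, interval 0.12 to 0.51, adjusted p = 0.0299 in edgeR). The exact two-sided permutation test of mean log2 CPM gave p = 0.0159, and 0.146 after adjustment over all genes. No tested gene had an adjusted p under 0.107 in this permutation test, so it called none at 0.05. The call held in 4 of the 10 fits that leave out 1 liver and was lost without GF+MEV replicate 1 (adjusted p = 0.0561, edgeR), 2 (0.0635) or 4 (0.0729), or GF+PBS replicate 1 (0.063), 2 (0.0542) or 3 (0.067). Scaling by library totals alone also ended it (log2 fold change 0.24, adjusted p = 0.0833 in edgeR), as did summing the alike GF+PBS livers (0.33, adjusted p = 0.0621 in edgeR).

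*Srm* (ENSMUSG00000006442, chromosome 4 from 148591503 to 148594993, plus strand) encodes spermidine synthase. It was at 30.8, 23.8, 24.7, 22.2 and 24.2 CPM in GF+MEV and 23.4, 27.2, 22.7, 31.3 and 26.2 CPM in GF+PBS. GF+MEV replicate 1 stood well above the other 4 of its group, at the upper end of the GF+PBS range. On the log2 scale the groups differed by -0.06 (SE 0.12, interval -0.32 to 0.21, adjusted p = 0.804 in edgeR).

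*Sms* (ENSMUSG00000071708, X chromosome from 157443855 to 157492287, minus strand) encodes spermine synthase. It was at 6.65, 6.62, 4.39, 6.01 and 5.72 CPM in GF+MEV and 4.83, 6.72, 5.83, 5.26 and 6.06 CPM in GF+PBS. The groups were intermixed, with GF+MEV replicate 3 lowest. Stretches shared with 6 other genes make up 28.7% of its longest coding transcript. A library held 87 to 120 of its reads, for which counting error alone gives a coefficient of variation of 9.99%, against 15.7% and 12.8% measured in GF+MEV and GF+PBS. GF+MEV minus GF+PBS came to 0.03 on the log2 scale (SE 0.13, interval -0.29 to 0.34, adjusted p = 0.936 in edgeR), the widest interval of the 10 genes, and it was -0.01 with upper-quartile scaling and -0.05 with library totals alone.

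The ratio of *Amd1* to *Srm* within a liver, given without a test, had a median of 1.1 in GF+MEV (0.891 to 1.35) and 0.829 in GF+PBS (0.774 to 0.979). Of the GF+MEV livers, 4 lay above the GF+PBS range, replicate 3 only just (0.982), and replicate 1 lay inside it.

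The back-conversion genes did not move as a block. *Sat1* (ENSMUSG00000025283, X chromosome from 155213132 to 155216449, minus strand) encodes spermidine/spermine N1-acetyltransferase, whose product feeds the oxidase and which polyamines themselves induce. It was at 53.6, 49.5, 49.8, 55.7 and 52.6 CPM in GF+MEV and 55.0, 53.1, 53.6, 53.8 and 50.9 CPM in GF+PBS. All 10 livers lay close together, with a coefficient of variation of 5.04% in GF+MEV and 2.82% in GF+PBS, beside a counting error of 3.3%. The log2 fold change was -0.03 (SE 0.04, interval -0.12 to 0.06, adjusted p = 0.827 in edgeR), the narrowest interval of the 10 genes. *Sat1* to *Odc1* within a liver was 0.55 to 0.634 in GF+MEV and 0.624 to 0.683 in GF+PBS.

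*Paox* (ENSMUSG00000025464, chromosome 7 from 140115799 to 140137224, plus strand) encodes the peroxisomal polyamine oxidase that takes the acetylated products of SAT1 back to putrescine and spermidine. It was called lower in GF+MEV livers. It measured 37.9, 34.98, 32.8, 36.2 and 30.6 CPM in GF+MEV and 40.8, 45.2, 41.6, 50.6 and 50.3 CPM in GF+PBS. Every GF+MEV liver lay below every GF+PBS liver, and GF+PBS replicates 1 and 3 were the nearest to GF+MEV. The group means were 34.5 ± 2.86 and 45.7 ± 4.65 CPM (SD, n = 5 each), 1.33-fold higher in GF+PBS (log2 fold change -0.41, SE 0.09, interval -0.60 to -0.21, adjusted p = 0.00607 in edgeR). An exact permutation test, two-sided, gave p = 0.00794, the smallest that 252 labelings allow. After adjustment over all genes it was 0.107, the smallest of any tested gene in this test. The gene was called under all 19 alternative settings, with log2 fold changes from -0.48 to -0.37 and adjusted p-values up to 0.0227. Exons of *Echs1*, an enzyme of fatty acid oxidation on the other strand, cover 142 bases of *Paox* exons, and *Echs1* itself moved by -0.06 on the log2 scale (adjusted p = 0.585 in edgeR). Of the 50-base stretches of the longest *Paox* transcript, 28.9% occur in transcripts of 115 other genes on either strand. Among these genes 72 are in the count table, and their part in the *Paox* count was not tested.

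*Smox* (ENSMUSG00000027333, chromosome 2 from 131491496 to 131525922, plus strand) encodes spermine oxidase, which converts spermine to spermidine without acetylation. It was at 4.09, 5.45, 5.26, 4.38 and 4.56 CPM in GF+MEV and 5.72, 5.94, 8.21, 5.71 and 6.54 CPM in GF+PBS. The 2 groups did not overlap, although the gap between GF+MEV replicate 2 and GF+PBS replicate 4 was narrow, and GF+PBS replicate 3 stood highest. On the log2 scale the groups differed by -0.43 (SE 0.12, interval -0.71 to -0.13), the largest in size among the members, but edgeR's quasi-likelihood test left it short of the threshold (adjusted p = 0.0634, unadjusted 0.00565). The exact two-sided permutation p was 0.00794, or 0.107 adjusted over all genes, each the smallest that any tested gene had. With 67 to 138 reads per library, counting error alone amounts to 10.1%. DESeq2 called it (adjusted p = 0.0441), as did edgeR with upper-quartile scaling (adjusted p = 0.0385) or library totals alone (adjusted p = 0.0295).

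**Figure D3:**
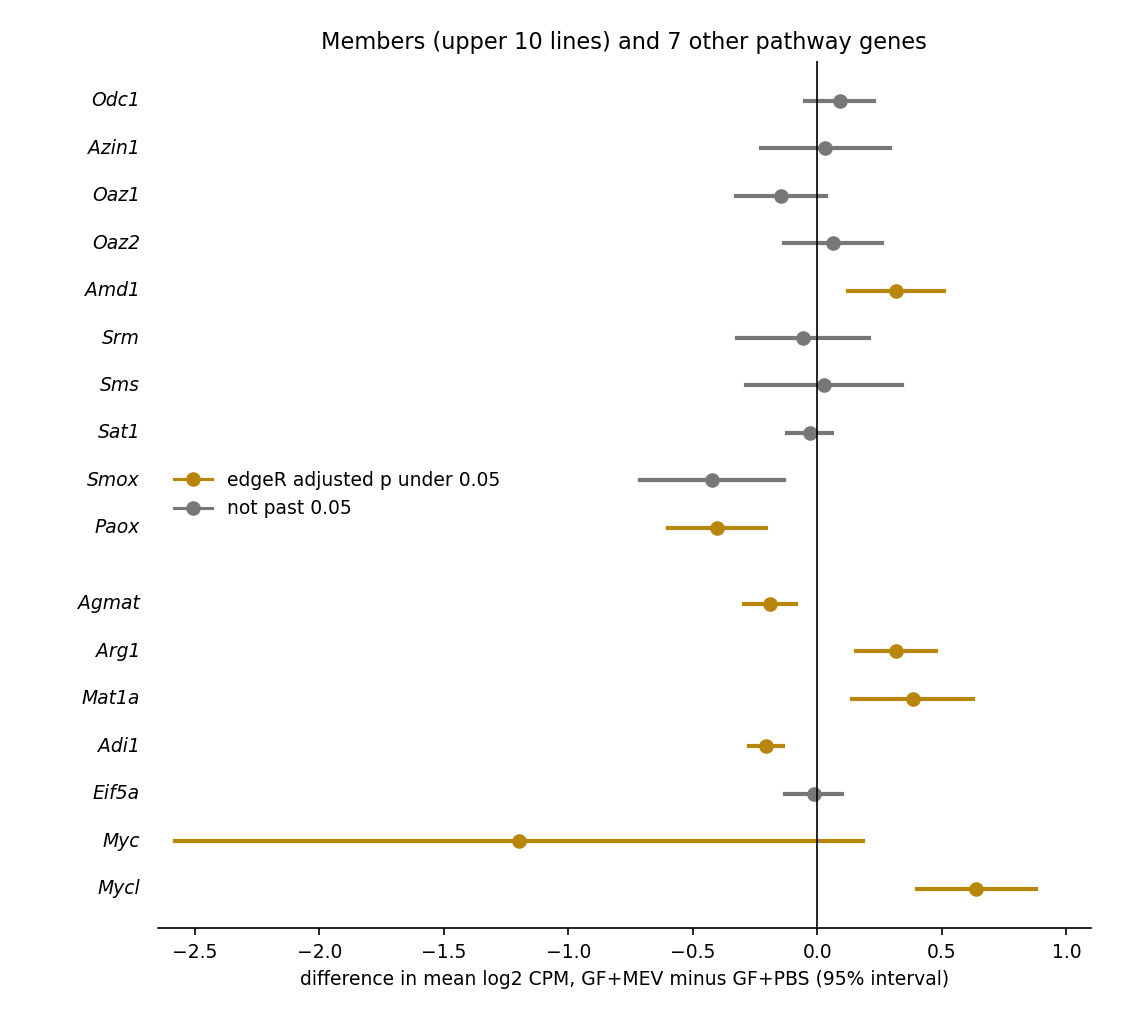
Difference in mean log2 CPM, GF+MEV minus GF+PBS, with its 95% interval, for the 10 members and 7 other genes of the pathway lists; gold marks an edgeR adjusted p under 0.05. The intervals of 7 members span 0, *Amd1* lies to the right and *Paox* and *Smox* to the left, and *Myc* has an interval that spans 0 although its edgeR test passed.

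**Figure D4:**
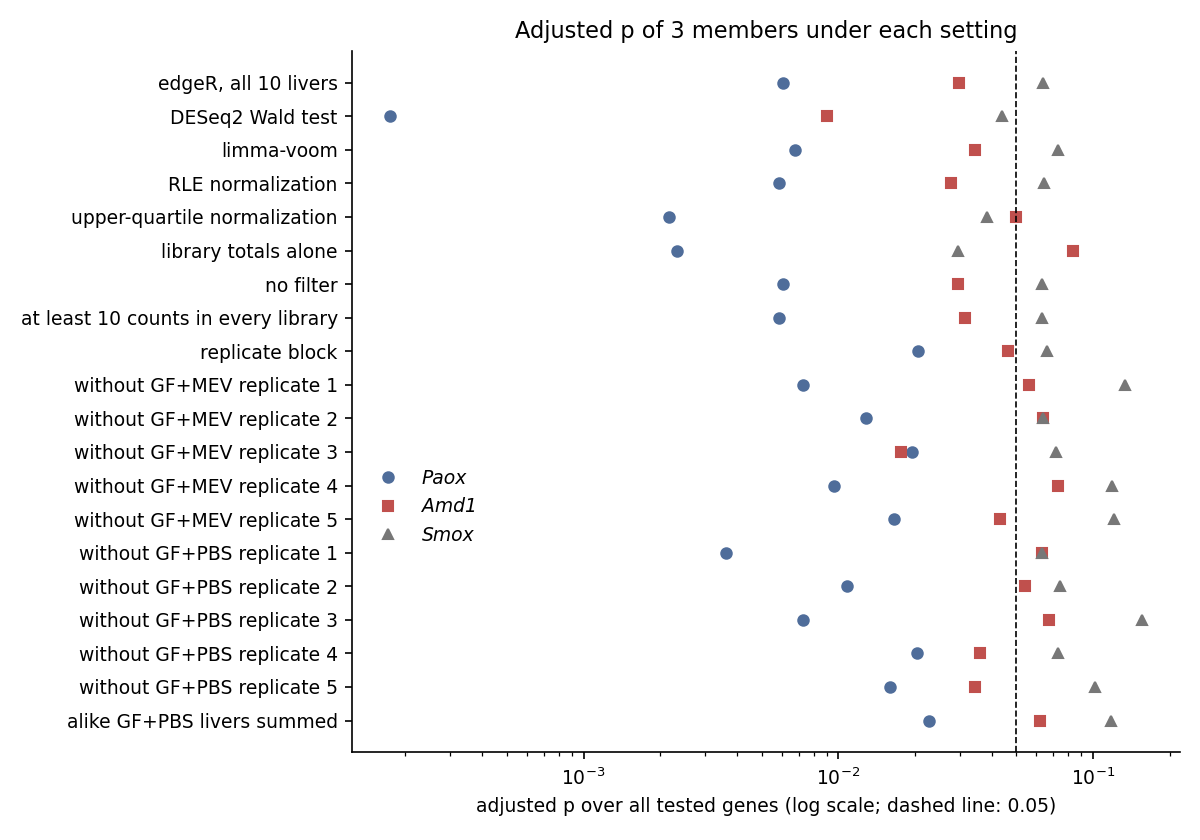
Adjusted p over all tested genes (horizontal log axis, dashed line at 0.05) for *Paox*, *Amd1* and *Smox* with all 10 livers in edgeR and under the 19 alternatives on the vertical axis. *Paox* stays left of the line throughout, *Amd1* crosses it in 8 alternatives, and *Smox* lies left of it in 3.

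GF+PBS replicates 1 and 3 lay outside the range of replicates 2, 4 and 5 in 5 of the 10 genes. The same held in 33.6% of all tested genes, so the pattern is not particular to the members. Replicates 1 and 3 were below the other 3 livers in *Azin1*, *Srm* and *Paox*, and above them in *Oaz1* and *Oaz2*. This grouping of livers was noticed in the data and is given without a test.

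**Figure D5:**
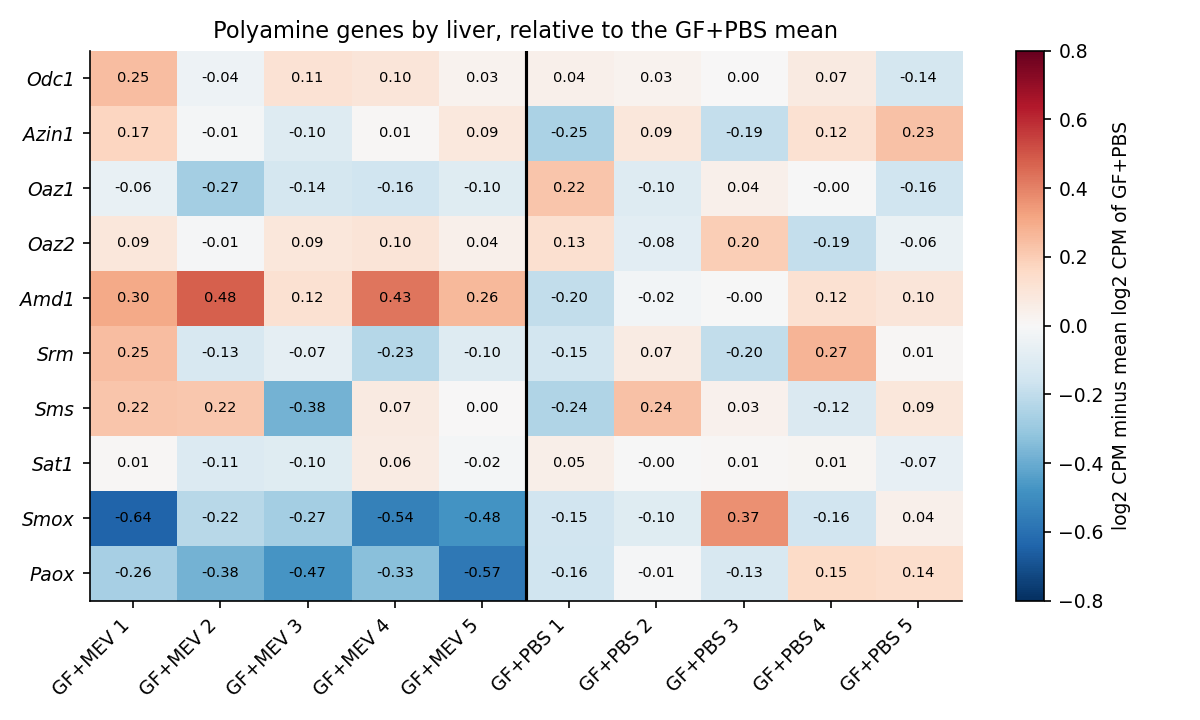
Log2 CPM of each polyamine gene in each liver minus the mean log2 CPM of the GF+PBS livers, by color and number. *Paox* and *Smox* are negative in all 5 GF+MEV livers and *Amd1* positive in all 5. In the other 7 members, and in *Smox*, the range among GF+PBS livers is wider than the difference between the group means. In *Amd1* that range, from -0.20 to 0.12, is about as wide as the log2 fold change of 0.32.

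For each called member, the 3 tested genes with the nearest course over the 10 livers were found by the root mean square difference of centred log2 CPM. Nearest to *Paox* were *Apol7a*, of the apolipoprotein L family (0.086), *Flcn*, which encodes folliculin (0.087), and *Sc5d*, which encodes a desaturase of cholesterol synthesis (0.096). Their log2 fold changes were -0.37, -0.33 and -0.45. Nearest to *Amd1* were *Sgtb*, a co-chaperone gene (0.05), *Nedd1*, which encodes a centrosome protein (0.06), and *Serpinb6b*, a serpin gene (0.071). Their log2 fold changes were 0.29, 0.36 and 0.26. The course includes the difference between the groups, so the sign of these values is set by the choice and they are given without a test.

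Outside the 10 genes, 38 of 48 listed pathway genes were tested, and 3 were called higher and 3 lower, beside the background of 7.64%. Their median log2 fold change was -0.039. Of the other polyamine enzymes and antizymes, 3 of 7 were tested and only *Agmat*, which encodes the enzyme named agmatinase, was called. *Agmat* (ENSMUSG00000040706) fell in GF+MEV, to 175 ± 4.72 CPM against 199.9 ± 11.6 CPM in GF+PBS (SD, n = 5 each; log2 fold change -0.19, adjusted p = 0.0447 in edgeR). Its livers did not overlap between the groups, with 170 to 182 CPM after MEV and 184 to 211 CPM after PBS. The call was lost in 9 of the 10 fits that leave out 1 liver, all but the fit without GF+PBS replicate 5, with adjusted p-values of up to 0.111 (edgeR).

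Ornithine, the substrate of *Odc1*, comes from arginase in the urea cycle. Of the 4 tested genes of ornithine supply and use, *Arg1* (ENSMUSG00000019987), the liver arginase, was called higher and 3 were not called. It was at 1379, 1463, 1312, 1371 and 1458 CPM in GF+MEV and 1046, 1081, 1026, 1245 and 1226 CPM in GF+PBS. The groups did not overlap, and GF+PBS replicates 4 and 5 were the nearest to GF+MEV. GF+MEV minus GF+PBS came to 0.31 on the log2 scale (SE 0.07, adjusted p = 0.0115 in edgeR), and the call held in all 10 fits that leave out 1 liver. *Arg1* and *Mat1a*, described next, are hepatocyte genes, and the part of the 3 hepatocyte markers called higher in these results was not tested. *Oat* and *Otc*, which draw on ornithine, had log2 fold changes of 0.002 (adjusted p = 0.995 in edgeR) and -0.016 (adjusted p = 0.909 in edgeR).

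S-adenosylmethionine feeds *Amd1*, and methionine salvage takes up the methylthioadenosine that the synthases release. Of 10 genes, all tested, 1 was called higher, 1 lower and 8 not called. An unadjusted edgeR p under 0.05 was found in 5 of the 10, against 21.2% of all tested genes. The log2 fold changes were above 0 in 6 genes and below 0 in 4. *Mat1a* (ENSMUSG00000037798), the main methionine adenosyltransferase of liver, was at 3469, 3273, 3498, 3228 and 4031 CPM in GF+MEV and 2304, 3014, 2332, 2905 and 2914 CPM in GF+PBS. The groups did not overlap, and GF+PBS replicates 1 and 3 were the lowest. Its log2 fold change was 0.38 (SE 0.10, adjusted p = 0.0185 in edgeR), and the call was lost without GF+PBS replicate 3 (adjusted p = 0.0535 in edgeR), with library totals alone (0.0692) and with the alike GF+PBS livers summed (0.07). *Adi1* (ENSMUSG00000020629), a dioxygenase of the salvage route, was at 109 to 121 CPM in GF+MEV and 130 to 135 CPM in GF+PBS, apart in all livers (log2 fold change -0.21, SE 0.03, adjusted p = 0.0183 in edgeR). It was called in all 10 fits that leave out 1 liver and not with the alike GF+PBS livers summed (adjusted p = 0.0818 in edgeR).

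Spermidine is also the donor for hypusine, a modified lysine in the translation factor eIF5A. None of the 3 tested genes of this route was called, and none had an unadjusted edgeR p under 0.05. *Eif5a* (ENSMUSG00000078812), the most abundant of them, was at 345 ± 18.2 CPM in GF+MEV and 349 ± 19.99 CPM in GF+PBS (SD, n = 5 each; log2 fold change -0.02, interval -0.13 to 0.10, adjusted p = 0.92 in edgeR). Of 8 tested genes of polyamine transport none was called in edgeR, 1 had an unadjusted edgeR p under 0.05, and DESeq2 called 1.

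*Odc1* is a textbook target of the transcription factor MYC. Of 10 tested genes of the MYC network, 1 was called higher, 1 lower and 8 not called. *Myc* (ENSMUSG00000022346) was at 2.99, 5.24, 3.67, 6.01 and 3.47 CPM in GF+MEV and 7.33, 3.19, 7.97, 21.9 and 19.9 CPM in GF+PBS. GF+PBS replicates 4 and 5, which are alike over the table, stood far above the rest, and replicate 2 lay among the GF+MEV livers. The log2 fold change was -1.50 (adjusted p = 0.0414 in edgeR). The difference in mean log2 CPM was smaller, -1.20, and its 95% interval ran from -2.58 to 0.18. The call was lost without GF+PBS replicate 4 (log2 fold change -1.16, adjusted p = 0.121 in edgeR) or 5 (-1.25, adjusted p = 0.09 in edgeR), or without GF+MEV replicate 1 (adjusted p = 0.0946 in edgeR), 2 (0.0628), 3 (0.098) or 5 (0.0859). It was also lost with the alike GF+PBS livers summed (-1.34, adjusted p = 0.118 in edgeR) and in limma-voom (adjusted p = 0.167). *Mycl* (ENSMUSG00000028654), a relative of *Myc*, was at 10.4, 9.38, 9.95, 7.92 and 10.6 CPM in GF+MEV and 5.78, 7.17, 5.48, 6.62 and 5.71 CPM in GF+PBS. Its groups did not overlap, its log2 fold change was 0.65 (SE 0.10, adjusted p = 0.00218 in edgeR), and it was called under all 19 alternatives. *Odc1* had the log2 fold change of 0.09 given above, and its relation to either gene was not tested.

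Promoter sequences from RefSeq (300 bases around a start site) were at hand for 8 of the 10 genes, in 10 entries. The MYC-type E-box CACGTG occurred in 1 of them, for *Sms*, against 7.15% of 32851 promoters, and the cAMP response element in none, against 1.79%, with both strands searched. No match in these windows says only that the letters are absent there.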

How the data were processed

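The 10 polyamine genes and all gene lists were chosen with earlier results of these data known. The authors extracted total RNA from liver, prepared libraries with the NEBNext Ultra RNA kit, aligned reads to GRCm38 with STAR 2.7.3a (bcl2fastq 2.17 is also named in the processing notes), used HTSeq to count reads per gene and dropped any gene under 20 counts across samples. They deposited raw counts, with no normalization; read length, annotation release, strand setting and the treatment of multiply aligned reads are not given in the sources used here. Another 5 columns match no described sample and were not used.

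From the counts, edgeR 4.0.16 (R 4.3.3) fitted treatment group alone over all 10 libraries and 12147 genes, with TMM scaling, a quasi-likelihood test and Benjamini-Hochberg adjustment (threshold 0.05). Standard errors and 95% intervals were computed per gene on log2 CPM (prior count 2), allowing unequal spread, and single values also had an exact two-sided permutation test. The intervals are centred on the difference in mean log2 CPM, which can differ from the edgeR log2 fold change printed beside them. With libraries of 15746119 to 20523649 counts, counting error of a member in 1 library was 1.22% to 10.1%. Whether the mice of a group shared a cage or batch is not given, so p-values measure the spread between these livers. In simulated counts with 200 genes changed by 1 on the log2 scale, edgeR recovered 188 with 15 false calls, DESeq2 1.42.0 190 with 20 and limma-voom (limma 3.58.1) 189 with 13. The members' log2 fold changes were smaller, -0.433 to 0.317, so this recovery does not measure how well such differences are found. Alternatives were DESeq2, limma-voom, 3 other scalings, 2 other filters, a replicate block, each liver left out, and alike GF+PBS livers summed (1 with 3, 4 with 5).

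Named genes were all members, called genes of the pathway lists or, with none called, the gene of highest mean CPM, and the 3 genes nearest in course to each called member; 1 gene that the rule names is not reported here. Gene positions, exon lengths and transcripts came from GENCODE M21.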

Additional observations from a re-analysis of the deposited data

Results flagged for a closer look

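In GF+MEV replicate 1, *Srm* was at 30.8 CPM while the other 4 livers of the group lay between 22.2 and 24.7 CPM, and its gap to the nearest was 0.711 of the range of the group, just past the critical value of 0.71 for 5 samples. Among the 34 groups examined in this way (the 10 members and 7 other named genes in each treatment), chance alone would be expected to mark about 1.7. The GF+PBS livers reached 31.3 CPM for the same gene.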

How the results depend on the processing

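Of the 10 members, 2 were called; the number was 1 to 2 when single livers were left out, 1 with the alike GF+PBS livers summed, and 3 in DESeq2. For the other pathway genes, 6 were called, 9 in DESeq2, 4 to 6 when single livers were left out and 2 with the alike livers summed. Over all genes 928 were called, 696 to 926 with 1 liver left out, 561 with the alike livers summed and 1201 in DESeq2; the summed fit has 8 samples in place of 10. The call of *Paox* was kept under all 19 alternatives and that of *Amd1* under 11. The sign changed near 0 for *Azin1* (-0.019 with upper-quartile scaling, -0.054 with library totals, -0.038 to 0.081 with 1 liver left out), *Sms* (-0.012, -0.05 and -0.028 to 0.123), *Oaz2* (-0.017 with library totals), *Srm* (-0.142 to 0.015 with 1 liver left out) and *Eif5a* (-0.035 to 0.015); none of these was called in any setting, and the cause was not tested. Deviations of same-numbered livers correlated by -0.188 to 0.166, too weakly to treat the numbers as pairs. This cannot tell whether same-numbered mice shared a cage or batch. With a replicate block, 2 members, 4 other pathway genes and 792 genes were called; *Agmat* (edgeR adjusted p = 0.0942) and *Adi1* (0.0729) were lost. Low counts limit *Smox* and *Sms*, and sequence shared with other genes limits *Amd1*, *Oaz1*, *Odc1*, *Paox* and *Sms*.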
